A study of Mus musculus with 4 samples.

Results

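The 27 genes described here encode GABA-A, GABA-B and glycine receptor subunits, the inhibitory postsynaptic proteins gephyrin and neuroligin 2, and the chloride cotransporters NKCC1 and KCC2. They were taken by gene symbol from the transcript abundance files of the study, and all 27 were found among the 34968 symbols shared by its 4 libraries. Bulk RNA-seq had been performed on ES-derived neurons of 2 mouse lines, N/D and N/D/S, with 2 libraries per line. Both lines descend from a C57/BL6 parental ES line carrying Dlx6-Cre and Ai9, a Cre-dependent tdTomato reporter of subpallial neuronal lineages. Both carry Nkx2-1 driven by a Nestin promoter, together with the tetracycline transactivator, and a TRE-driven Dlx2. In N/D/S the TRE cassette adds V5-tagged St18, a zinc finger factor of the Myt1 family. Embryoid bodies of both lines received the Wnt inhibitor XAV-939 and the hedgehog agonist SAG, and tdTomato+ cells were sorted on day 12. The lines were selected as separate clones, so an effect of St18 and a difference between clones cannot be told apart.

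GABA-A receptors are chloride channels opened by GABA and assembled as pentamers, typically of α, β and γ or δ subunits, and the α subunit sets much of their kinetics and location. Glycine receptors are related channels in which β subunits anchor the complex to gephyrin, the scaffold of inhibitory synapses. GABA-B receptors are G protein-coupled dimers of the subunits encoded by Gabbr1 and Gabbr2. Whether GABA and glycine excite or inhibit a neuron depends on its internal chloride, which NKCC1 raises and KCC2 lowers. During maturation of forebrain neurons KCC2 typically increases, and receptors rich in α2, α3, α5 and glycine α2 subunits are typical of young neurons.

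Levels are given as TPM, a transcript abundance scaled to transcript length and to a fixed total per library, so that genes can be compared within a library. Read depth is unknown, since TPM do not keep it. Libraries are named by line and replicate number as N/D/S 1, N/D/S 2, N/D 1 and N/D 2, which repeats their labels and no more. The labels were checked on St18, which had 44.4 TPM in the library N/D/S 1, 15.9 TPM in N/D/S 2, 28.5 TPM in N/D 1 and 26.6 TPM in N/D 2. St18 did not separate the lines, and each direction given here rests on the labels. The library labelled N/D 1 stood apart, with 13426 shared symbols above 0 against 17118 to 20750 in the others. Among 6139 genes that reached 10 TPM in all of the others, 613 (9.99%) were listed at 0 there, whereas at most 2 genes were in the corresponding comparison of any other library. Neuronal markers (Tubb3, Dcx, Stmn2, Map2, Rbfox3 and Snap25) were all above 0, with summed levels of 2962 to 4647 TPM. GABAergic and ventral telencephalic markers (Gad1, Gad2, Slc32a1, Dlx1, Dlx5, Nkx2-1 and Lhx6) summed to 423 to 1113 TPM and were all above 0. Progenitor markers (Sox2, Nes, Hes5, Vim, Mki67 and Top2a) also summed to 187 to 314 TPM, with Hes5 and Mki67 at 0 in the library N/D 1.

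No expression result here uses the upstream sequence, and the windows just before the annotated starts are shown for 5 members. These are Gabra3 and Gabra5, the α subunits with the highest mean over the libraries other than N/D 1, Gabbr1, the most abundant member, and Glrb and Slc12a5, which with Gabbr1 were the members above 10 TPM in the library N/D 1. Each is the 250 bases upstream of a RefSeq start on GRCm38.p6, read 5′ to 3′ on the gene's strand, with CG dinucleotides in capitals.
Glrb (chr3:80913661-80913910, minus strand, 20 CG): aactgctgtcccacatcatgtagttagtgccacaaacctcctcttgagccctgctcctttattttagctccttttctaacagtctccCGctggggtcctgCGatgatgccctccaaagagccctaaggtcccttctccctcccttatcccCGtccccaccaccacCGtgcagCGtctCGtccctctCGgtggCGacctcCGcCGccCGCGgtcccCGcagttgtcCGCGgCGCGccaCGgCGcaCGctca
Gabbr1 (chr17:37045716-37045965, plus strand, 16 CG): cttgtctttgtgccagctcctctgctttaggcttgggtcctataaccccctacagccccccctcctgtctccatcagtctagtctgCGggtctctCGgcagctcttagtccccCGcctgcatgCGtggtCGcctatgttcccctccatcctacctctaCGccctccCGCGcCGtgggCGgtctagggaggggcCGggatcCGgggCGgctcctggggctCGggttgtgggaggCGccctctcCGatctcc
Slc12a5 (chr2:164960596-164960845, plus strand, 13 CG): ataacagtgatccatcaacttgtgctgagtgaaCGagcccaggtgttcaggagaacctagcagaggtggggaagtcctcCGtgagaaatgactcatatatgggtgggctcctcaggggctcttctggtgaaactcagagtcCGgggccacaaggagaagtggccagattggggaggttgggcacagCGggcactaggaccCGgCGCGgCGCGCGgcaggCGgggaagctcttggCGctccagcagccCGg
Gabra5 (chr7:57510060-57510309, minus strand, 9 CG): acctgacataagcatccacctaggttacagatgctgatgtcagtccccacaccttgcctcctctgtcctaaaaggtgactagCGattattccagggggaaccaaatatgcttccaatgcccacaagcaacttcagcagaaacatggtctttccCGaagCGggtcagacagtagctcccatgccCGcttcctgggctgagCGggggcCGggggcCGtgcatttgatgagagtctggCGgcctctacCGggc
Gabra3 (chrX:72656808-72657057, minus strand, 0 CG): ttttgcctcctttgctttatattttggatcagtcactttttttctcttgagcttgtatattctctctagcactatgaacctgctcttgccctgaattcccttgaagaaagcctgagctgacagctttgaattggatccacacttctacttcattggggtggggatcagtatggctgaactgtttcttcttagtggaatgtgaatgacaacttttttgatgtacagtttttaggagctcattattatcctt

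RefSeq gave 29 such windows for 24 of the 27 members. Their median CG count was 8.0, against 6.0 over all 32851 windows. For the members tested below it was 12.5 over 20 windows, against 16.0 over the 12649 windows of all genes tested. The member window with the most CG, 37, was that of Gabbr2, which was listed at 0 in the library N/D 1. The letters AAAGTTT, an element bound by Myt1-family zinc fingers, were searched on both strands and found in 0 of the 29 windows and in 4.2% of all windows. The letters TAATT, a homeodomain core recognized by Dlx factors among others, occurred on either strand in 6 windows (20.7%), against 25.0% of all windows. In the windows of tested members the share was 15.0%, against 15.1% in those of all genes tested. Gabrg1 held the most, 6 matches counted over both strands with overlaps, and is shown with them in capitals.
Gabrg1 (chr5:70842618-70842867, minus strand): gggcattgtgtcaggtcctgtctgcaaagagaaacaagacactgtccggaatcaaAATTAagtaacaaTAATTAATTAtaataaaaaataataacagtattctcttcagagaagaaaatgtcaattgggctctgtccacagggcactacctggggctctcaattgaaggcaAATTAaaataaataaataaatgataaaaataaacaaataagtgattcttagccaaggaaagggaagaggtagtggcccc

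Of the 27 members, 16 reached 1 TPM in at least 2 libraries and were tested, and 11 did not. Members below that level were Gabra6, the α subunit of cerebellar granule cells, the δ subunit Gabrd, the γ subunit Gabrg3, the ρ subunits Gabrr1, Gabrr2 and Gabrr3 known from retina, Gabre, Gabrp, and the glycine receptor subunits Glra1, Glra3 and Glra4. Their values ran from 0 to 1.38 TPM, the highest being that for Gabrg3 in the library N/D 2, followed by 0.75 TPM for Gabrr2 in the same library. Gabrr3 was listed at 0 throughout, and Gabra6 and Gabrp each had a value above 0 only in the library N/D/S 2, at 0.0097 and 0.0071 TPM. For Glra1, the adult spinal α subunit, the range was 0 to 0.21 TPM. With the library N/D 1 near 0 for most members, passing the filter rested mainly on the other libraries.

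**Figure D1:**
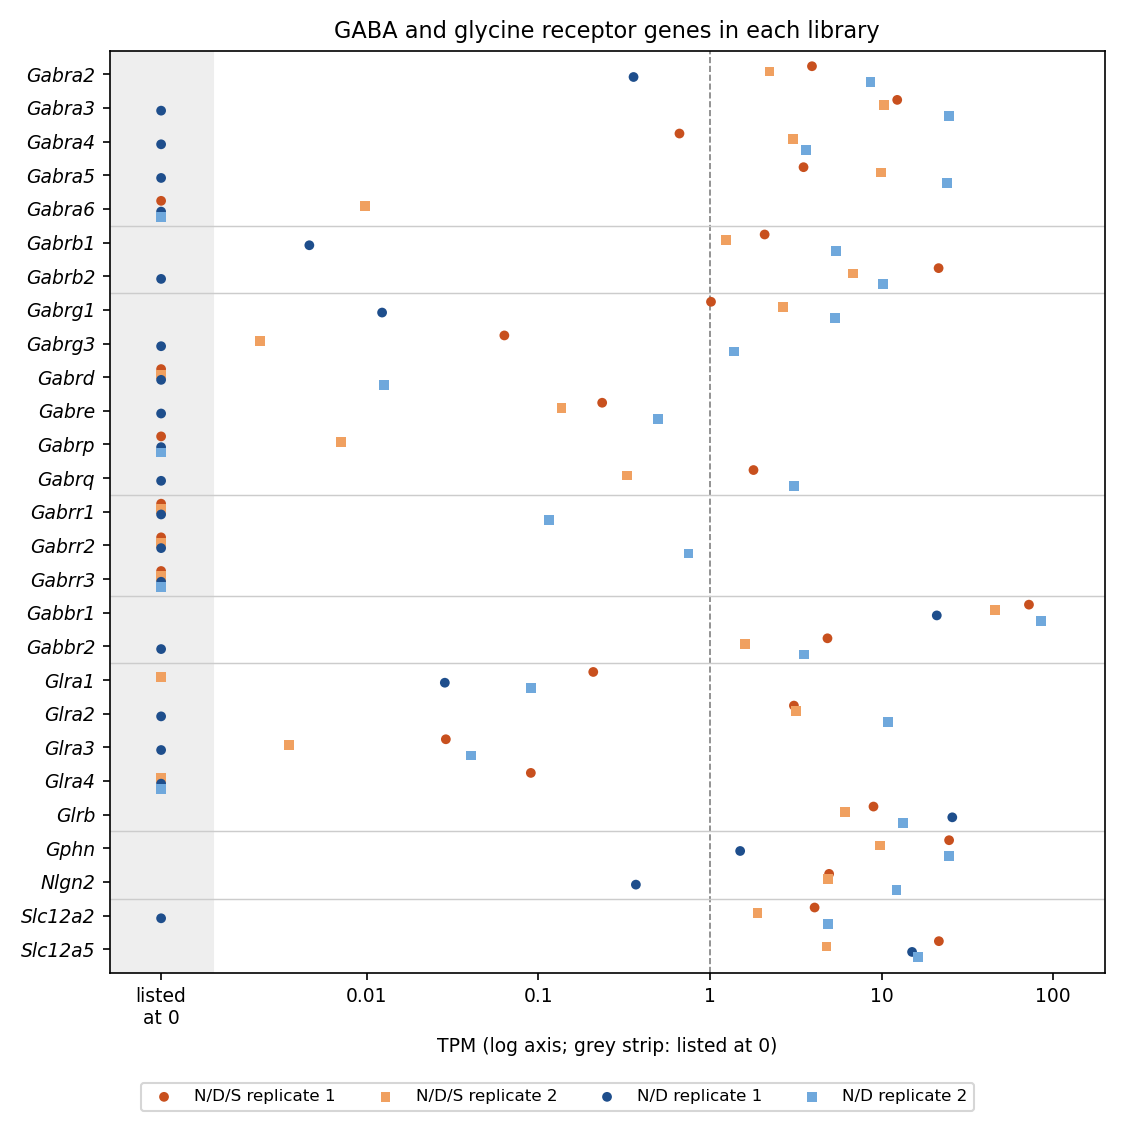
TPM of the 27 members in each of the 4 libraries on a log axis, grouped by class, with values listed at 0 in the grey strip and the dashed line at 1 TPM. Gabbr1 is the highest member in the 2 N/D/S libraries and in N/D 2, and 18 members lie in the grey strip in the library N/D 1.

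The first comparison asked whether the α subunits, which set GABA-A receptor subtype, differed between N/D/S and N/D neurons. Gabra3, on chromosome X of GRCm38 from 72432681 to 72656848, had 12.3 TPM in N/D/S 1, 10.4 in N/D/S 2, 0 in N/D 1 and 24.8 in N/D 2. Gabra5, on chromosome 7 from 57407672 to 57510059, had 3.51 TPM in N/D/S 1, 9.92 in N/D/S 2, 0 in N/D 1 and 24.1 in N/D 2. For both genes the N/D/S libraries fell between the N/D libraries. Gabra2 had 3.93 (N/D/S 1), 2.22 (N/D/S 2), 0.36 (N/D 1) and 8.61 TPM (N/D 2). Gabra4, whose product typically joins δ subunits outside synapses, had 0.66 TPM in N/D/S 1, 3.05 in N/D/S 2, 0 in N/D 1 and 3.61 in N/D 2. The lines thus overlapped for each of these, and α, β and γ subunits outside the list are not analysed here. On the log2(TPM + 1) scale, the fitted difference, N/D/S minus N/D, was 1.28 for Gabra3 (standard error 1.57), 0.48 for Gabra5 (1.60), 0.27 for Gabra4 (1.17) and 0.14 for Gabra2 (1.23), each with an adjusted p of 1 (limma, Benjamini-Hochberg). Without the library N/D 1 these differences had the opposite sign, at −1.07, −1.84, −0.83 and −1.27.

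The make-up of the α subunits was compared within libraries, where scaling between libraries does not enter. Of the summed TPM of the 5 listed α subunits, Gabra3 made up 60.4% in the library N/D/S 1, 40.6% in N/D/S 2 and 40.5% in N/D 2. Gabra5 made up 17.2%, 38.8% and 39.5%, and Gabra2 19.2%, 8.68% and 14.1%. The library labelled N/D/S 2 thus lay closer to N/D 2 than to the other library of its own line in the shares of Gabra3 and Gabra5. In the library N/D 1 the sum was 0.36 TPM, all of it Gabra2, and no shares are given. The summed α subunits had 20.4 (N/D/S 1), 25.6 (N/D/S 2), 0.36 (N/D 1) and 61.2 TPM (N/D 2), and an exact two-sided permutation test over libraries gave p = 1. With 2 libraries against 2, the smallest p this test can give is 0.333.

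**Figure D2:**
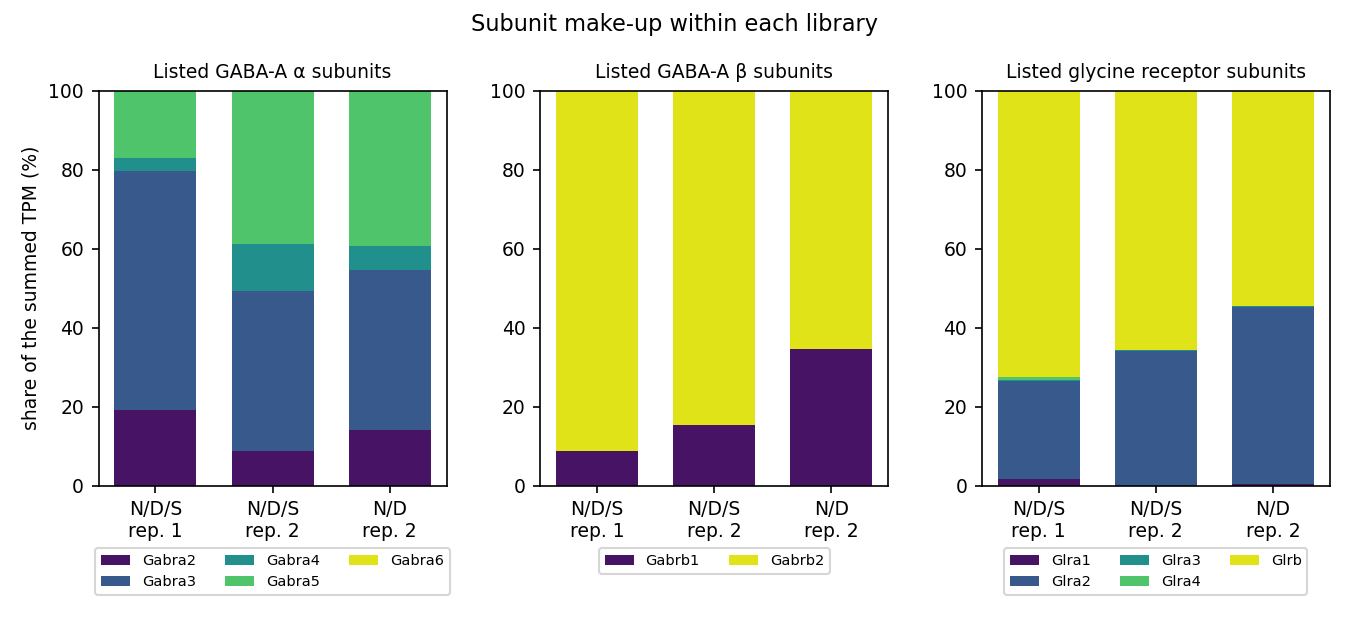
Share of the summed TPM, in percent, taken by each listed GABA-A α, GABA-A β and glycine receptor subunit in 3 libraries. The library labelled N/D 1 is left out of every panel because its summed α and β subunits were under 1 TPM. Its glycine receptor sum, also left out, was 25.9 TPM, of which Glrb made up 99.9%. Gabrb2 takes 91.2%, 84.7% and 65.4% of the β bars from left to right.

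The β and γ subunits build the binding site and the synaptic form of the receptor together with α. Gabrb2 had 21.5 TPM in N/D/S 1, 6.85 in N/D/S 2, 0 in N/D 1 and 10.2 in N/D 2. It was the member with the largest fitted difference towards N/D/S, 1.99 (standard error 1.39, adjusted p of 1 by limma). With a pseudocount of 0.1 it was 3.59, and the differences of Gabra3, Gabra5 and Glra2, also listed at 0 in N/D 1, were 2.85, 1.95 and 1.62, so these sizes depend on the pseudocount. The difference of 1.99 was about as large as the residual standard deviation between libraries of a line, 1.90. Within replicate 1 the N/D/S library was higher by 4.49 log2 units against a value listed at 0, and within replicate 2 it was lower, at −0.52. Without the library N/D 1 the difference was 0.24. Gabrb1 had 2.08 (N/D/S 1), 1.24 (N/D/S 2), 0.0046 (N/D 1) and 5.40 TPM (N/D 2). Of the summed β subunits listed, Gabrb2 made up 91.2% and 84.7% in N/D/S and 65.4% in the library N/D 2. Gabrg1, a γ subunit, had 1.01 TPM in N/D/S 1, 2.66 in N/D/S 2, 0.012 in N/D 1 and 5.34 in N/D 2. Gabrq, the θ subunit of hypothalamic and brainstem neurons, had 1.79 (N/D/S 1), 0.33 (N/D/S 2), 0 (N/D 1) and 3.09 TPM (N/D 2). The fitted differences of these 3 genes lay between −0.07 and 0.10, with standard errors of 1.13 to 1.21. Without the library N/D 1 they were −1.29 for Gabrb1, −1.22 for Gabrg1 and −1.08 for Gabrq.

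Several of these subunits lie in clusters on the chromosome. On chromosome 11, Gabrb2 lies head to head with Gabra6 across 98.7 kb, which reached at most 0.0097 TPM. On chromosome 7, Gabra5 lies 20.5 kb from Gabrg3, which had 0.063 TPM in N/D/S 1, 0.0024 in N/D/S 2, 0 in N/D 1 and 1.38 in N/D 2. On chromosome 4, Gabrr2 and Gabrr1, at most 0.75 and 0.12 TPM, lie 36.7 kb apart. On chromosome X, Gabra3 lies between Gabre, with 0 to 0.50 TPM, and Gabrq. On chromosome 5, Gabrg1, Gabra2, Gabra4 and Gabrb1 all had between 0.66 and 8.61 TPM outside the library N/D 1. In GENCODE M21 the starts of Gabra4 and Gabrb1 overlap head to head by 196 bases, and how reads from the overlap were divided is not known.

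GABA-B receptor genes were compared next, since the receptor needs both of its subunits at the cell surface. Gabbr1, on chromosome 17 from 37045966 to 37075067, was the most abundant member in 3 of the libraries, with 72.3 (N/D/S 1), 46.0 (N/D/S 2), 20.98 (N/D 1) and 84.9 TPM (N/D 2). It ranked above 78.3% to 83.0% of tested genes outside the library N/D 1 and above 61.3% in it. Gabbr2 had 4.84 TPM in N/D/S 1, 1.60 in N/D/S 2, 0 in N/D 1 and 3.52 in N/D 2. Gabbr1 exceeded Gabbr2 in every library, by 14.9-fold and 28.8-fold in N/D/S and 24.1-fold in the library N/D 2. No fold is given against the 0 in N/D 1. The differences between the lines were 0.43 for Gabbr1 (standard error 1.10) and 0.87 for Gabbr2 (1.16), each with an adjusted p of 1 (limma, Benjamini-Hochberg). Both turned sign without the library N/D 1, to −0.55 and −0.21. The log2 ratio of Gabbr1 to Gabbr2, on TPM + 1, was 3.65 and 4.18 in N/D/S and 4.46 and 4.25 in N/D. Both N/D/S values lay below both N/D values, a difference between the lines of −0.44 with an exact two-sided permutation p of 0.333, the smallest possible. The lines overlapped with a pseudocount of 0.1 and after upper quartile scaling (exact p = 0.667 for each) and after quantile scaling, where the difference between the lines turned to 0.12 (exact p = 1). The highest ratio was set by the pseudocount, because Gabbr2 was listed at 0 in the library N/D 1.

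Glrb was the one tested member whose lines did not overlap. Glrb, the gephyrin-binding β subunit on chromosome 3 from 80843599 to 80913660, had 8.97 (N/D/S 1), 6.10 (N/D/S 2), 25.8 (N/D 1) and 13.3 TPM (N/D 2). The log2 difference was −1.22 (standard error 0.99), with an unadjusted p of 0.259 and an adjusted p of 1 (limma, Benjamini-Hochberg). It was −1.43 within replicate 1 and −1.01 within replicate 2, and its residual standard deviation of 0.52 was the smallest of the 16 members tested. With each library left out in turn it ranged from −1.67 to −0.76, the latter without the library N/D 1. Because the lines did not overlap, the sign of all these differences was fixed in advance. Glrb was the highest member in the library N/D 1, and the one tested member that was higher there than in the library N/D/S 1. Among all tested genes, 8.23% were lower in both N/D/S libraries than in both N/D libraries, and 8.69% were higher in both. With 1 of 16 members lower (Glrb) and 0 higher, the members did not exceed this background.

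Glra2, the embryonic α subunit on chromosome X from 165129017 to 165327393, had 3.08 TPM in N/D/S 1, 3.17 in N/D/S 2, 0 in N/D 1 and 10.9 in N/D 2. The N/D/S libraries were nearly equal, and lay between the N/D libraries. Its difference was 0.26 (standard error 1.35) with all libraries and −1.53 without the library N/D 1. Glra2 made up 24.9% and 34.2% of the summed glycine receptor subunits in N/D/S and 44.96% in the library N/D 2, and Glrb made up 72.5%, 65.8% and 54.5%. The other α subunits together were near 0. Summed glycine receptor subunits had 12.4 (N/D/S 1), 9.27 (N/D/S 2), 25.9 (N/D 1) and 24.3 TPM (N/D 2), and were the one class whose totals did not overlap between the lines on deposited TPM. After quantile scaling the β sum (0.68) and the other GABA-A sum (−0.93) did not overlap either (exact p = 0.333 for each). The log2 difference of the glycine receptor sums was −1.15 (exact two-sided permutation p = 0.333, the smallest possible), and −0.96 to −1.35 with a library left out. Because these totals did not overlap, the sign with a library left out was fixed in advance. In the library N/D 1 that total was 99.9% Glrb, whereas in N/D 2 it was divided between Glrb and Glra2. The log2 ratio of Glra2 to Glrb on TPM + 1 was −1.29 and −0.77 in N/D/S and −4.75 and −0.26 in N/D, with a permutation p of 1 by the exact test. The value of −4.75 in N/D 1, where Glra2 was listed at 0, was set by the pseudocount. The difference of this ratio between the lines was 1.47 with a pseudocount of 1 and 2.93 with 0.1. Without the library N/D 1 that difference turned to −0.77.

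Gephyrin and neuroligin 2 hold these receptors at inhibitory synapses. Gphn, on chromosome 12 from 78226379 to 78684772, had 24.8 TPM in N/D/S 1, 9.82 in N/D/S 2, 1.498 in N/D 1 and 24.6 in N/D 2. The libraries N/D/S 1 and N/D 2 had nearly the same level. Nlgn2, the adhesion protein of inhibitory synapses, had 4.94 (N/D/S 1), 4.86 (N/D/S 2), 0.37 (N/D 1) and 12.2 TPM (N/D 2). The differences were 1.06 for Gphn (standard error 1.35) and 0.47 for Nlgn2 (1.29), and −0.62 and −1.16 without the library N/D 1. Neither passed the test, with an adjusted p of 1 for each (limma, Benjamini-Hochberg).

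The chloride cotransporters were compared as levels and as a ratio. Slc12a5, which encodes the extruder KCC2, had 21.6 TPM in N/D/S 1, 4.78 in N/D/S 2, 15.1 in N/D 1 and 16.3 in N/D 2. The N/D libraries were close, while the N/D/S libraries differed 4.52-fold from each other and lay on either side. Slc12a2, which encodes the importer NKCC1, had 4.07 (N/D/S 1), 1.89 (N/D/S 2), 0 (N/D 1) and 4.87 TPM (N/D 2). KCC2 transcripts exceeded those of NKCC1 in every library, by 5.30-fold and 2.52-fold in N/D/S and 3.34-fold in the library N/D 2. No fold is given against the 0 in N/D 1. The log2 ratio of Slc12a2 to Slc12a5 on TPM + 1 was −2.16 and −0.998 in N/D/S and −4.01 and −1.56 in N/D, with an exact two-sided permutation p of 0.667. The value of −4.01 in N/D 1 was set by the pseudocount. The difference of this ratio between the lines was 1.204 with a pseudocount of 1 and 2.65 with 0.1. Without the library N/D 1 that difference was −0.020. The difference between the lines was −0.54 for Slc12a5 (standard error 1.09) and 0.66 for Slc12a2 (1.19), with an adjusted p of 1 for each (limma, Benjamini-Hochberg). Slc12a2 turned to −0.62 without the library N/D 1, and Slc12a5 to 0.44 without N/D/S 2.

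**Figure D3:**
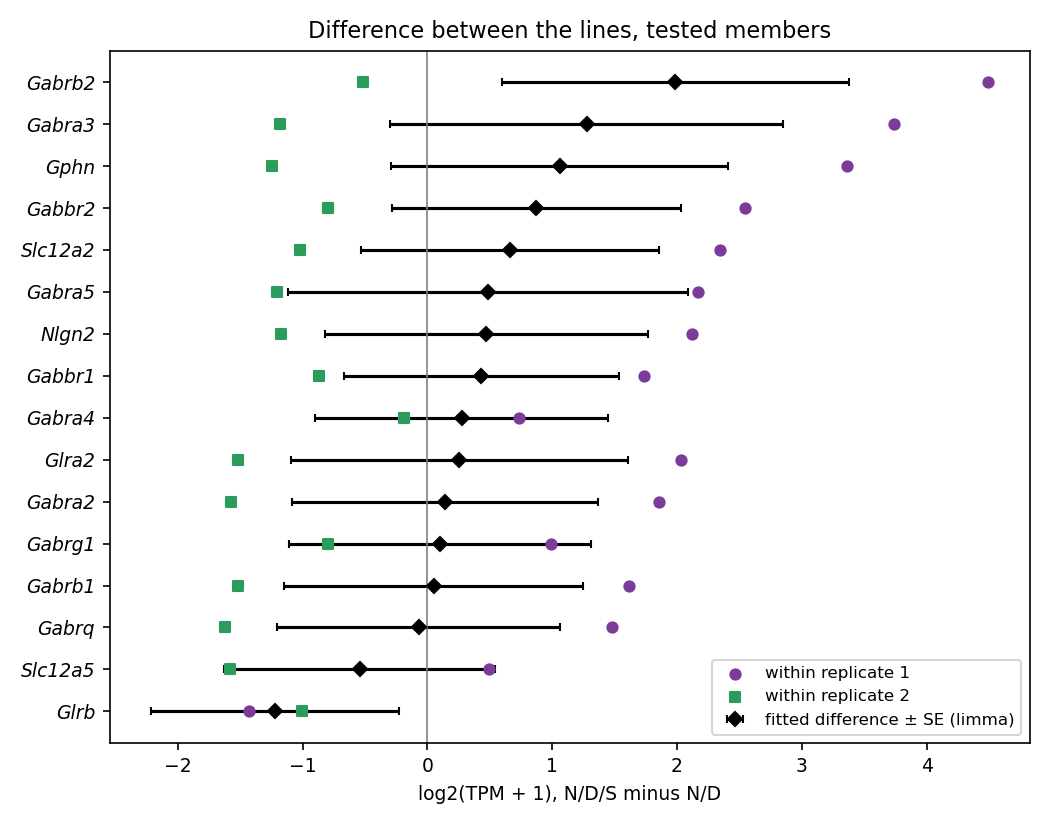
Difference of N/D/S minus N/D in log2(TPM + 1) for the 16 tested members, with the limma estimate and its standard error as black diamonds, the difference within replicate 1 as circles and within replicate 2 as squares. All squares lie below 0 and all circles except that of Glrb lie above 0.

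Over the whole fit, 0 of the 16 tested members passed an adjusted p of 0.05 (limma, Benjamini-Hochberg), in either direction, as did 0 of 12975 genes (0% higher and 0% lower). At an unadjusted p under 0.05 there were 0 members and 8 genes (0.0617%). The median difference was 0.35 for the tested members and 0.26 for all tested genes, and the difference was above 0 for 13 members and below 0 for 3, against 7967 and 5008 of the 12975 tested genes. Leaving out the library N/D 2 changed this, since the N/D line was then represented by N/D 1 alone. In that fit 2213 genes were called higher and 160 lower in N/D/S, among them the members Gabrb2 at 3.73 and Gabra3 at 3.62 (limma, adjusted p of 0.0109 and 0.0139), for which the remaining N/D library held a 0. That fit assumed the lone N/D library to vary like the N/D/S libraries and gave every gene the same spread.

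On deposited TPM, the differences within replicate 1 and within replicate 2 had opposite signs for 15 of the 16 tested members, all but Glrb. Within replicate 1, 15 of the 16 tested members were higher in the N/D/S library, Glrb being lower, against 72.5% of all tested genes. Within replicate 2, 16 of 16 were lower in the N/D/S library, against 74.7% of all tested genes. The median within-replicate difference was 1.94 and −1.18 for the members and 1.14 and −0.62 for all tested genes, so the members' medians had the sign of the medians of all genes and lay further from 0.

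The library labelled N/D 1 carried many of the members at or near 0. There, 8 of the 16 tested members were listed at 0 (Gabra3, Gabra4, Gabra5, Gabrb2, Gabrq, Gabbr2, Glra2 and Slc12a2), against 26.1% of all tested genes. Under 1 TPM were 12 of the 16, against 42.1% of all tested genes. Genes of low level in the other libraries were listed at 0 more often in general. Of tested genes with a mean of 1 to 5 TPM in the other libraries 51.9% were at 0, and so were 4 of 7 members. The corresponding values were 39.6% and 1 of 3 members at 5 to 10 TPM, and 27.6% and 3 of 5 members at 10 to 20 TPM. Above 50 TPM they were 2.64% and 0 of 1 member, and no member lay between 20 and 50 TPM. With so few members per level, no difference from genes of like level was tested. Members above 10 TPM in this library were Glrb, Gabbr1 and Slc12a5. The longest annotated transcript had a median length of 4048.5 bases in members listed at 0 and 5408 bases in the other tested members, against 3286 bases in all tested genes with a GENCODE entry. The median locus spanned 150.4 kb in members listed at 0 and 80.8 kb in the others, against 22.8 kb.

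**Figure D4:**
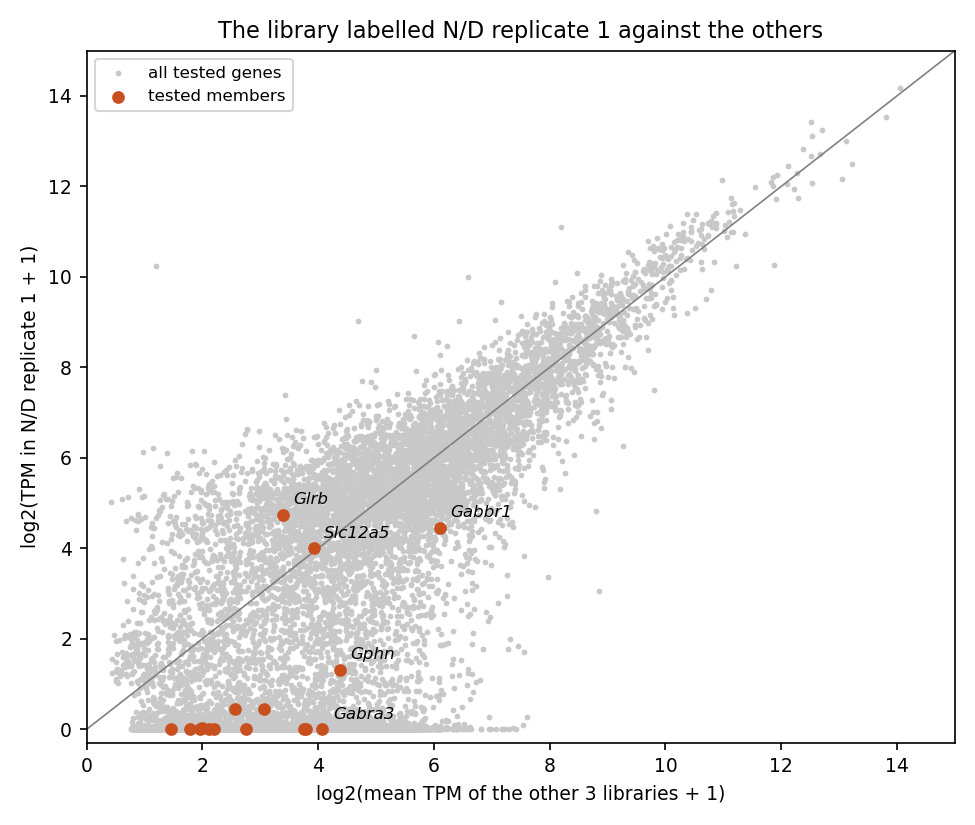
TPM in the library N/D 1 against the mean of the other 3 libraries, both as log2(TPM + 1), for all tested genes in grey and the 16 tested members in orange, with the line of equal values. Of the members, 8 lie at 0 on the vertical axis, whereas Slc12a5 is on the line and Glrb above it.

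With that library set aside, the remaining 3 libraries were compared as a description, since N/D is then a single library. On deposited TPM, both libraries labelled N/D/S were below N/D 2 for 12 of the 16 tested members, against 31.9% of all tested genes. Both were above it for 0 members, against 13.3%. The 12 were Gabra2, Gabra3, Gabra4, Gabra5, Gabrb1, Gabrg1, Gabrq, Gabbr1, Glra2, Glrb, Nlgn2 and Slc12a2. The count of 12 was the same after median-of-ratios, upper quartile and quantile scaling and on percentiles within each library, where 23.8% to 29.6% of all tested genes met the rule. For Gabrb2, Gabbr2, Gphn and Slc12a5 the library N/D/S 1 was at or above N/D 2. Relative to N/D 2, N/D/S 1 was furthest below in Gabra5, at −2.48 log2 units, and N/D/S 2 in Gabrq, at −1.62, and Glra2 lay at nearly the same distance in both N/D/S libraries, −1.55 and −1.52. No gene passed an adjusted p of 0.05 in limma without the library N/D 1 (48 genes and 0 members at an unadjusted p under 0.05), and whether the pattern belongs to the line or to that one library cannot be told apart.

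**Figure D5:**
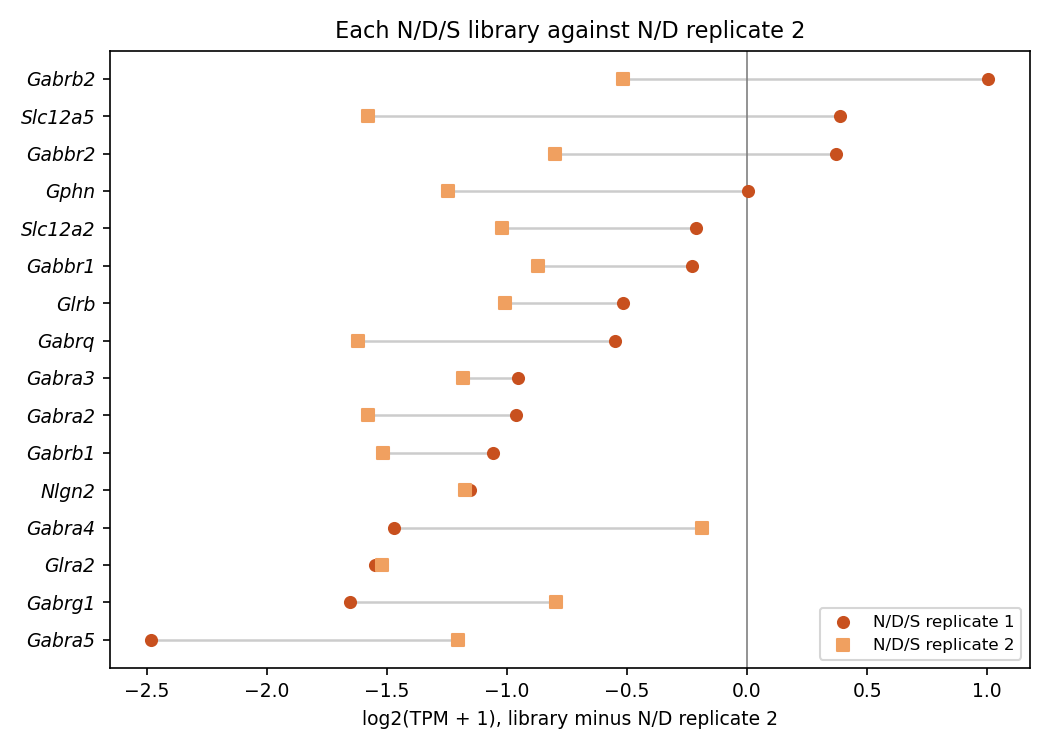
Difference in log2(TPM + 1) of each N/D/S library from the library N/D 2 for the 16 tested members, circles for N/D/S 1 and squares for N/D/S 2. For 12 members both symbols lie below 0, from Gabra5 at the bottom up to Slc12a2, and all squares lie below 0.

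Replicate numbers also differed within a line. The library labelled N/D/S 1 was above N/D/S 2 for 12 of the 16 tested members, against 73.2% of all tested genes. The 4 exceptions were Gabra4, Gabra5, Gabrg1 and Glra2. These 4 genes were also higher in replicate 2 than in replicate 1 of the N/D line, as were 15 of the 16 tested members and 9354 of the 12975 tested genes. The files of same-numbered libraries also listed the same number of symbols, 35197 for replicate 1 and 35204 for replicate 2. Markers of other cells moved with the replicate number. Pluripotency markers (Pou5f1, Nanog and Zfp42) summed to 0.25 to 0.47 TPM in the replicate 1 libraries and 19.8 to 25.0 TPM in the replicate 2 libraries. Glial markers (Gfap, Aqp4, Olig1 and Olig2) summed to 0 to 1.32 and 35.3 to 78.3 TPM, and mesoderm and endoderm markers (Col1a1, Col3a1, Sox17 and Afp) to 0.035 to 2.60 and 16.9 to 25.1 TPM. Of these, Aqp4 and Sox17 were above 0 in N/D 2 alone, and Afp in N/D/S 1 alone, at 0.20 TPM, so that the collagens carried the mesoderm and endoderm sum. The summed glutamatergic markers (Slc17a6, Slc17a7 and Tbr1) had 13.8 to 18.9 TPM in replicate 1 and 1.26 to 3.06 TPM in replicate 2. Slc17a6 carried that difference, whereas Slc17a7, at up to 0.49 TPM, was higher in replicate 2 of both lines and Tbr1, at up to 0.52 TPM, in replicate 2 of N/D. The part of these cells in the receptor differences was not tested, and in bulk samples fewer cells of a type and less RNA per cell cannot be told apart.

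Partner genes of inhibitory synapses were read from the same fit. Of 52 symbols listed, 50 were found and 49 tested, of which 0 passed an adjusted p of 0.05 in either direction (limma, Benjamini-Hochberg) and 0 had an unadjusted p under 0.05. Their median difference was 0.15, against 0.26 for all tested genes. By group, it was 0.47 for 28 GABA-A receptor and gephyrin partners, 0.03 for 11 GABA-B auxiliary subunits and effectors and −0.59 for 10 chloride transporters and their kinases. The lines did not overlap for 6 partners, 3 lower and 3 higher in N/D/S, so the partners did not exceed the 8.23% and 8.69% of all tested genes. Among the 6 partners whose lines did not overlap, the largest difference was that of Wnk1, a kinase that regulates chloride cotransporters. Wnk1 had 8.43 TPM in N/D/S 1, 2.59 in N/D/S 2, 71.3 in N/D 1 and 12.5 in N/D 2. Its log2 difference was −2.42 (standard error 1.21, unadjusted p of 0.0851 and adjusted p of 1 from limma). Ajap1, a membrane protein that binds GABA-B receptors, had 16.9 and 5.85 against 26.8 and 18.7 TPM, and Iqsec3, a gephyrin-binding exchange factor, 2.63 and 0.97 against 5.00 and 3.13 TPM. Of those with both N/D/S values above both N/D values, Clptm1, which retains GABA-A receptors inside the cell, was at 193.7 and 190.4 against 60.7 and 139.5 TPM, and Mocs1, a molybdenum cofactor enzyme of the pathway gephyrin completes, was at 4.25 and 4.14 against 0.32 and 3.83 TPM. Both N/D/S libraries were below N/D 2 for 21 of the 49 partners, against 31.9% of all tested genes.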

How the data were processed

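tdTomato+ neurons had been poly-A selected, sequenced as paired-end reads and pseudoaligned by the authors with kallisto 0.44.0 to a mouse transcriptome index; the submitters' processing notes name GRCm38 and sleuth. The authors deposited TPM per gene symbol for each library. How transcripts were combined into genes is not given in the sources used here. Files were joined on symbol (24 symbols turned into dates, 2 of them listed in duplicate, were left out). The 12975 genes reaching 1 TPM in 2 or more libraries were fitted with limma 3.58.1 in R 4.3.3 on log2(TPM + 1), 2 libraries against 2, with Benjamini-Hochberg adjustment over all genes tested. Sleuth needs kallisto output that was not used here. Sums and ratios were tested by exact two-sided permutation. The labels do not state separate cultures, so p-values measure only the spread between these libraries, which may be technical. Positions and lengths came from GENCODE M21 (GRCm38), upstream windows from RefSeq (GRCm38.p6). Tested members and St18 were named, and of the partners the 5 with the largest difference among those whose lines did not overlap. Members and lists were chosen with earlier results of these data known. Alternatives were a pseudocount of 0.1, other filters, 3 scalings, replicate number as a block, and each library left out. Python 3.11.15 drew the figures.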

Additional observations from a re-analysis of the deposited data

How the results depend on the processing

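With all 4 libraries kept, no listed gene was called under any of the alternatives. The filters and the block leave a gene's own difference as it is by construction. Against 8 genes at an unadjusted p under 0.05, the alternatives gave 18 with a pseudocount of 0.1 TPM, 207 with no filter, 42 with at least 1 TPM in every library, 18 with median-of-ratios, 13 with upper quartile and 55 with quantile scaling. The median of the tested members was 1.25 with a pseudocount of 0.1 TPM (all genes 0.38), 0.058 with no filter (26 members, all genes 0.024), −0.055 under the filter of 1 TPM in every library (4 members, all genes −0.15) and −0.21 after quantile scaling (all genes −0.05). Quantile scaling turned Gabra2 to −1.01, Gabra4 to −0.14, Gabra5 to −0.13, Gabrb1 to −0.93, Gabrg1 to −0.92, Glra2 to −0.27, Nlgn2 to −0.71, the α subunit sum to −0.22, the other GABA-A sum to −0.93, the scaffold sum to −0.14 and the line difference of the GABA-B log2 ratio to 0.12 (exact p = 1); the lower pseudocount turned Gabrq to 0.68. The cause was not tested. With the replicate number as a replicate block, 9 genes had an unadjusted p under 0.05 and 0 were called; deviations of same-numbered libraries correlated at 0.020, so the numbers, for which the labels give no shared batch, were not taken as pairs, although same-numbered files list equal numbers of symbols, and the block changed no call.

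With 1 library left out, the count of genes ranged 0 to 2213 called higher, 0 to 160 called lower and 3 to 3789 at an unadjusted p under 0.05, and that of listed genes 0 to 2 called and 0 to 4 at an unadjusted p under 0.05. The upper ends came without N/D 2. The members' median ranged from −0.95 without N/D 1 (all genes −0.29) to 1.75 without N/D 2 (all genes 0.88). The differences of single genes ranged from −1.27 to 1.55 for Gabra2, from −1.07 to 3.62 for Gabra3, from −0.83 to 1.38 for Gabra4, from −1.84 to 2.81 for Gabra5, from −1.29 to 1.39 for Gabrb1, from 0.24 to 3.73 for Gabrb2, from −1.22 to 1.42 for Gabrg1, from −1.08 to 0.95 for Gabrq, from −0.55 to 1.42 for Gabbr1, from −0.21 to 1.96 for Gabbr2, from −1.53 to 2.04 for Glra2, from −1.67 to −0.76 for Glrb, from −0.62 to 2.74 for Gphn, from −1.16 to 2.11 for Nlgn2, from −0.62 to 1.94 for Slc12a2, from −1.53 to 0.44 for Slc12a5. Class sums ranged from −1.38 to 4.14 for GABA-A α, from −0.15 to 3.90 for GABA-A β, from −1.46 to 2.02 for other GABA-A, from −0.54 to 1.49 for GABA-B, from −1.35 to −0.96 for glycine receptor, from −0.79 to 2.94 for scaffold and adhesion, from −1.30 to 0.50 for chloride cotransporter. The differences of log2 ratios between the lines ranged from −0.020 to 2.43 for Slc12a2 over Slc12a5, from −0.77 to 3.72 for Glra2 over Glrb, from −0.70 to −0.18 for Gabbr1 over Gabbr2. The scalings of the 3-library count were chosen after seeing the data. Read depth is unknown, so low values carry no counting interval.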
